A study of Mus musculus with 18 samples.

Results

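The mouse embryonic stem (ES) cell line PL2F8 was compared with itself 2 days later, at day 4 against day 2 after leukemia inhibitory factor (LIF) had been taken away. The comparison was defined by the array labels and held all arrays of PL2F8 at those days, 2 at day 2 and 2 at day 4, or 4 of the 18 arrays of the series. The whole series followed PL2F8 and a second mouse ES line, AB2.2, at days 0, 2, 4, 6 and 8. Every group after day 0 had lost LIF, so the day 2 arrays are not an untreated control, and the AB2.2 arrays of days 2 and 4, also 2 a day, served as the parallel interval in another line. The labels state no modification, genotype or added agent for either line, and they leave unstated whether both arrays of a day stem from separate cultures. P-values therefore reflect only the spread between arrays, which may be technical.

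LIF is a cytokine that acts through the receptor pair Lifr and Il6st, the kinase Jak1 and the transcription factor Stat3 to hold mouse ES cells in the naive pluripotent state, the state of the early embryo's inner cells. Without it the cells first pass through a primed state like that of the epiblast just after implantation, which depends on FGF, ERK and Nodal signals. They then take on genes of mesoderm, endoderm or ectoderm. The lysosome, the compartment that breaks down proteins, lipids and sugars, is built from enzymes whose genes can be switched on together by the transcription factors Tfeb and Tfe3.

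Values are log2 normalized signals, 1 probe a gene, and a change is day 4 minus day 2 with its standard error (SE) from a model fitted with limma to all 18 arrays. A gene is said to rise or fall where the Benjamini-Hochberg adjusted p of this model was below 0.05. The arrays of a day had close profiles, with a correlation across genes of 0.9971 at day 2 and 0.9968 at day 4. Before normalization the mean signal was 355.2 and 331.9 at day 2 and lower at day 4, 283.6 and 286.0, while in AB2.2 it was 335.9 and 342.3 at day 2 and higher at day 4, 384.1 and 391.2. The share of probes detected was 43.2% and 43.0% at day 2 and 43.0% and 42.2% at day 4. All 6 marker genes of ES cells were detected at both days, with summed signals of 14514 and 14658 at day 2 and 12500 and 12502 at day 4. Of these markers 4 fell and 1 rose. Detection cannot show that the cells were still ES cells, since Pou5f1, Nanog, Sox2, Zfp42 and Tdgf1 were also detected in AB2.2 at day 8. Hprt, a housekeeping gene, was at -0.21 (SE 0.11, adjusted p = 0.126), with another probe at -0.59 and a value of -0.54 that passed with median scaling.

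Of 16095 genes 3837 rose (23.8%) and 3315 fell (20.6%), together 44.4%. Of these, 516 rose by at least 2-fold (3.21%) and 365 fell by at least 2-fold (2.27%). The median change over all genes was 0.025. With arrays scaled to a common median in place of quantile normalization, 2315 genes rose and 5094 fell, so that the share of rises among the called genes went from 53.6% to 31.2%, and the median over all genes became -0.104. The lower raw signal of the day 4 arrays moved with this split, and its part in it was not tested. In total RNA from a culture, fewer cells of a type and less RNA per cell cannot be told apart.

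The 15 genes with the largest rises were led by Ddit3, which encodes the stress transcription factor CHOP. Its day 2 arrays read 7.11 and 6.77 and its day 4 arrays 10.36 and 10.58, a rise of 3.53 (SE 0.13, 11.5-fold, adjusted p = 7.11e-09). The axonal kinesin Kif1a went from 5.46 and 5.80 to 8.76 and 8.78, a rise of 3.14 (SE 0.13). Both groups were clearly apart for these genes, as for every gene in the list by its rule. Fabp3, the heart fatty acid-binding protein, read 8.24 and 8.26 at day 2 and 11.30 and 11.32 at day 4 (change 3.06, SE 0.08). Adssl1, a muscle enzyme of purine nucleotide synthesis, rose by 3.02 (SE 0.10), although its other probes gave 0.06 to 2.46. Hrc, a calcium-binding protein of the muscle endoplasmic reticulum, rose by 2.85 (SE 0.13). For Hrc, and for Nes named below, replicate 2 of day 2 was not detected, so the sizes of these rises rest partly on background signal. Myl3, a myosin light chain of heart and slow muscle, was not detected at day 2 and was at least 5.55-fold higher at day 4. The others were the actin bundler Espn (2.49, another probe -0.13), the stress gene Gadd45b (2.34), the lysosomal thiol reductase Ifi30 (2.25), the simple-epithelium keratin Krt18 (2.19), the intermediate filament Nes (2.19, another probe 0.41), the lysosomal hydrolase Hexa (2.13), the Notch-related membrane protein Dner (2.13), the matrix-associated growth regulator Ccn2 (2.12) and the sialidase Neu1 (2.07). Hexa went from 7.98 and 7.93 to 9.99 and 10.16, and Neu1 from 8.38 and 8.27 to 10.43 and 10.35.

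Among the 15 largest falls, several belonged to FGF signalling and to the early epiblast. Enox1, a cell surface oxidase, fell most, from 9.64 and 9.48 at day 2 to 6.37 and 6.05 at day 4, by 3.35 (SE 0.12, adjusted p = 7.11e-09). Trh, the precursor of thyrotropin-releasing hormone, read 12.83 and 12.80 and then 10.57 and 10.51, and fell by 2.28 (SE 0.10). The homeobox factor Gbx2 fell by 2.24 (SE 0.10), from 9.29 and 9.39 to 7.03 and 7.17. Day 2 and day 4 values were at least 1 log2 unit apart on every pair of arrays of these genes. Spry4, a feedback inhibitor of FGF signalling, fell by 2.18 (SE 0.11), and the ETS factors Etv1 and Etv4, which lie downstream of FGF, by 2.10 (SE 0.09) and 1.96 (SE 0.09). Fgf5, the epiblast ligand of the same pathway, fell by 2.00 (SE 0.16), from 8.66 and 8.50 to 6.73 and 6.43. The remaining falls were those of the Wnt-inactivating enzyme Notum (-2.14), the folate receptor Folr1 (-2.13), the corepressor Ctbp2 (-2.10), the imprinted gene Zdbf2 (-2.09), Mup6 (-2.00), the guidance receptor Robo4 (-1.95, another probe 0.22), the heme synthesis enzyme Uros (-1.94, another probe -0.43) and the ribosome assembly factor Pes1 (-1.93). Mup6 belongs to a family of near-identical genes, so its identity is uncertain.

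**Figure D1:**
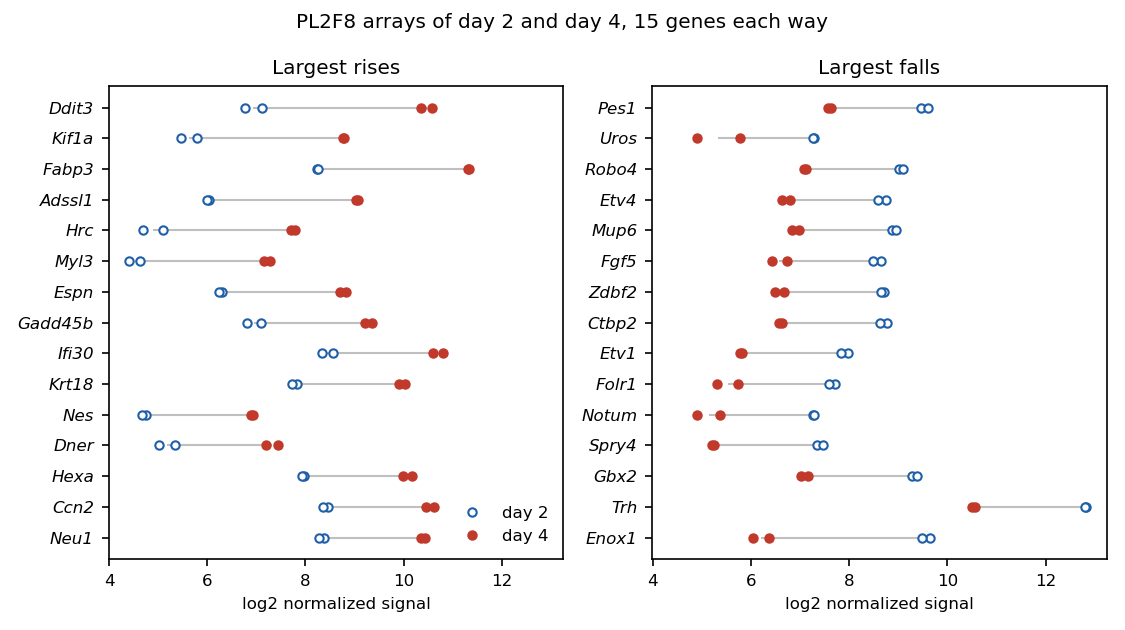
Log2 normalized signal (x axis) of the 15 genes with the largest rises (left) and falls (right) in PL2F8, with 2 open points for the day 2 arrays, 2 filled points for the day 4 arrays and a grey line between the group means. For every gene the 2 days are apart on all 4 arrays, as the rule that chose them required, and the lengths of the lines run up to 3.53 for Ddit3 and down to -3.35 for Enox1.

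Hexa, Neu1 and Ifi30 led to a list of 48 lysosome genes that was put together after these values had been seen, so its count is a description of a chosen list. Of its 46 genes tested, 28 rose and 4 fell, against 23.8% and 20.6% of all genes, and the median change was 0.39 (0.35 if undetected members are set to their bounds). With median scaling 18 rose and 5 fell, and the median was 0.11, beside -0.104 for all genes. The rises covered enzymes that remove sugars, with Fuca1, which removes fucose, at 1.33 (SE 0.13), enzymes of glycolipid and sphingolipid breakdown, with Gm2a, the activator protein of ganglioside breakdown, at 1.31 (SE 0.08) and Arsa, which removes sulfate from sulfatides, at 0.86, and membrane proteins, with Cd63 at 1.47 (SE 0.09) and Lamp2 at 1.41 (SE 0.08). Cd63 read 9.67 and 9.72 at day 2 and 11.20 and 11.13 at day 4. Lamp2 read 9.54 and 9.58 and then 10.98 and 10.97, though another probe of it gave 0.07. The protective protein Ctsa, which stabilizes Neu1, rose by 0.94. Not all members moved this way. The mannosidase Manba fell by 1.71 (SE 0.08), from 11.65 and 11.58 to 9.87 and 9.93, and the palmitoyl thioesterase Ppt1 by 0.84. The protease Ctsd (0.08, adjusted p = 0.718) and the membrane protein Lamp1 (0.20, adjusted p = 0.106) did not pass. Tfeb was not detected on any of the 4 arrays, and Tfe3 did not pass (-0.22, SE 0.11, adjusted p = 0.128). In AB2.2 19 of the 46 genes rose and 5 fell (20.9% and 17.7% of all genes), with a median of 0.21. The change was higher in PL2F8 for 12 and lower for 2, against 13.1% and 12.2% of all genes. With median scaling these were 4 and 14, beside 997 and 6163 of all genes. The change differed from that of AB2.2 for Hexa (difference 1.00, SE 0.15, adjusted p = 3.88e-04) and Neu1 (difference 1.74, SE 0.13, adjusted p = 2.07e-06). For Neu1 the AB2.2 arrays read 10.144 and 9.999 at day 2 already.

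Tfeb and Tfe3 bind the motif CACGTGAC, which was looked for on both strands in the 250 bases before each gene's start (RefSeq, GRCm38.p6). It was found in 571 of 27025 genes (2.11%) and in 10 of the 38 lysosome genes that were tested and had a promoter sequence. Of those 10 genes 6 rose and 0 fell, with a median change of 0.34. Of the 28 without it, 17 rose and 4 fell, with a median of 0.45, and the difference between the 2 sets was not tested. The 4 promoters that follow are shown because Hexa and Neu1 had the largest rises of the list and hold no such letters in this window, while Ctsa and Arsa had the largest rises among genes that do. Capitals mark the motif, here on the reverse strand as GTCACGTG, and each sequence is written 5′ to 3′ on the strand of its gene. The Hexa window is chr9:59539290-59539539 (plus strand), that of Neu1 chr17:34931003-34931252 (plus), that of Ctsa chr2:164833523-164833772 (plus) and that of Arsa chr15:89477425-89477674 (minus). In Ctsa the motif begins 14 bases before the start, and in Arsa 18 bases before it.
Hexa: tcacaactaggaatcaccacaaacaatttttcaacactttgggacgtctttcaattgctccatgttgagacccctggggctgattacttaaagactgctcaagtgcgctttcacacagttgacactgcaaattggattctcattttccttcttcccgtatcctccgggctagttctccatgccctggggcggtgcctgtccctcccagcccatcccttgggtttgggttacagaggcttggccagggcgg
Neu1: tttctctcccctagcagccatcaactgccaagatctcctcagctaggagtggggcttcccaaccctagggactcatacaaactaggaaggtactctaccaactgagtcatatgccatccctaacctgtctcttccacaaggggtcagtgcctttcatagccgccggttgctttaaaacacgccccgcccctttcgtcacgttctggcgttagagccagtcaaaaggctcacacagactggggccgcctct
Ctsa: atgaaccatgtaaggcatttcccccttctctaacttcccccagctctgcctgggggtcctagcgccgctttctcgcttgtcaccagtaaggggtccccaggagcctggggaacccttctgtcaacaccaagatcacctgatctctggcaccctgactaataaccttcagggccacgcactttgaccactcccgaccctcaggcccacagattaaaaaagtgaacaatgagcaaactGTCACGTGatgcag
Arsa: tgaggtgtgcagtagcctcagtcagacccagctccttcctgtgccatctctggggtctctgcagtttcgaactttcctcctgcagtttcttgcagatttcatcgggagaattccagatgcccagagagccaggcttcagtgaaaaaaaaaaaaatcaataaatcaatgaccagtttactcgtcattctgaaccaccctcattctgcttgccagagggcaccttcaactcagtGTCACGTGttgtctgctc

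The counts of this list and of every later one stand beside rises of 23.8% and falls of 20.6% over all genes. With median scaling 2315 of the 16095 genes rose and 5094 fell. For differences from AB2.2 the shares are 13.1% higher and 12.2% lower. With median scaling the change was higher in PL2F8 for 997 of the 16095 genes and lower for 6163, so later median-scaled counts stand beside these. In AB2.2 alone 20.9% of all genes rose and 17.7% fell. A count near these shares is not a result about the list. Of 24 naive pluripotency genes tested, 12 fell and 5 rose, with a median of -0.20, and with median scaling 14 fell and 2 rose, with a median of -0.45. The 5 rises were those of the factors Tfcp2l1, Dppa3, Nanog, Esrrb and Klf2, and the falls were led by Gbx2, the TGF-beta family ligand Gdf3 and Zfp42. Zfp42, a zinc finger marker of the naive state, read 11.32 and 11.27 at day 2 and 9.89 and 9.87 at day 4, a fall of 1.42 (SE 0.11). Gdf3 fell by 1.72 (SE 0.08). Zfp57, which protects imprints, fell by 1.26 (SE 0.16), and Dnmt3l, the cofactor of the de novo DNA methyltransferases, by 1.09 (SE 0.07). Klf4, a direct target of Stat3, fell further, by 0.67 (SE 0.13). In the opposite direction Tfcp2l1, also a target of Stat3, went from 9.79 and 9.63 to 10.62 and 10.57, a rise of 0.89 (SE 0.10). Nanog went from 11.51 and 11.72 to 12.30 and 12.09 and rose by 0.59 (SE 0.10, adjusted p = 5.54e-04), where another probe gave 0.01, and its value with median scaling was 0.19 and did not pass. Esrrb rose by 0.30 (SE 0.10, adjusted p = 0.0294), a call that was lost on leaving out any of the 4 arrays (0.25 to 0.35) and whose value was -0.07 with median scaling. Over the interval from day 0 to day 2, which shares the day 2 arrays, Tfcp2l1 had changed by -1.87, Nanog by -0.78, Esrrb by -1.03 and Klf4 by -2.08.

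Of 13 genes of the core pluripotency network 8 fell and 2 rose, with a median of -0.41, and with median scaling 9 fell and 0 rose, with a median of -0.73. Dppa2, a chromatin factor of ES cells, fell by 1.66 (SE 0.11) and the RNA-binding protein L1td1 by 1.58 (SE 0.10). L1td1 read 10.06 and 10.07 at day 2 and 8.50 and 8.48 at day 4. Pou5f1, the Oct4 gene, went from 12.43 and 12.34 to 11.86 and 12.09 and fell by 0.41 (SE 0.11, adjusted p = 0.00732), a call lost without replicate 1 of day 2 (-0.37) or of day 4 (-0.30). Sox2 did not pass (0.07, SE 0.10, adjusted p = 0.623), and the RNA-binding protein Lin28a rose by 0.52 (SE 0.13). The line difference was tested for the naive list gene by gene. For 16 of 24 genes the change was higher in PL2F8 than in AB2.2 and for 0 lower (13.1% and 12.2% of all genes). With median scaling these were 9 and 6, beside 997 and 6163 of all 16095 genes. In AB2.2 19 of the 24 fell and 2 rose (17.7% and 20.9% of all genes), with a median of -0.94. For Esrrb the difference was 0.94 (adjusted p = 4.76e-04) and for Sox2 0.75 (adjusted p = 0.00206). For Zfp42 no difference passed the test (-0.04, adjusted p = 0.884).

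Of 14 genes of LIF and STAT3 signalling 9 rose and 3 fell, with a median of 0.57, and with median scaling 8 rose and 3 fell, although LIF had been absent for the whole interval. The receptor chain Lifr fell by 1.26 (SE 0.11), from 6.12 and 6.42 to 5.04 and 4.97, and its partner Il6st did not pass (-0.02). The kinase Jak1 rose by 0.96 (SE 0.10), though another probe gave 0.11, and Stat3 rose by 0.87 (SE 0.10), with other probes at 0.28 to 0.97. Among the targets, the feedback inhibitor Socs3 went from 7.08 and 6.90 to 7.89 and 7.99 and rose by 0.95 (SE 0.10). The transcription factor gene Junb rose by 1.10 (SE 0.07) and the early response gene Ier3 by 1.76 (SE 0.07), from 9.14 and 9.18 to 10.89 and 10.94. The other targets that rose were the kinases Pim1 (0.73) and Pim3 (0.60), the inhibitor Cish (0.53) and the coregulator Bcl3 (0.51). The inhibitor Socs1 went the other way (-0.395, adjusted p = 0.0212). From day 0 to day 2, with the day 2 arrays in common, Socs3 had changed by -4.22 and Junb by -2.71. Myc was detected at day 2 only and was at least 1.6-fold lower at day 4. The change of Ier3 differed from that in AB2.2, where its value was -0.42 (adjusted p of the difference 1.54e-07), while the difference for Junb did not pass (adjusted p = 0.0864).

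Immediate early genes, which respond within minutes to growth factors or stress, went both ways, 5 higher and 3 lower of 13 tested (median 0.07, or -0.025 without replicate 1 of day 4). Fos rose by 1.85 (SE 0.10), from 6.06 and 5.77 to 7.87 and 7.66, and Klf6 by 0.99 (SE 0.09). Egr1, a sensor of ERK activity, fell by 1.01 (SE 0.09), from 8.73 and 8.48 to 7.56 and 7.63. Fos and Egr1, both induced by ERK in many cells, thus moved apart. In AB2.2 Egr1 rose by 0.70 over the same days (adjusted p of the difference 2.62e-06).

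Of 16 primed epiblast genes 11 fell and 2 rose, with a median of -0.63, the lowest of the lists. Beside Fgf5 and Etv4 these were Vrtn, Tcf15, Fgf15, Lef1, Pou3f1, Grhl2, Dnmt3b, Otx2 and Sox4. Vrtn, a factor of axial patterning, read 7.94 and 7.63 at day 2 and 6.73 and 6.26 at day 4, a fall of 1.29 (SE 0.15). Tcf15, a basic helix-loop-helix factor, fell by 1.21 (SE 0.12) and the ligand Fgf15 by 1.11 (SE 0.13). The POU factor Pou3f1 fell by 0.82 (SE 0.12) and the de novo methyltransferase Dnmt3b by 0.61 (SE 0.08), from 13.72 and 13.53 to 13.03 and 13.00. Otx2, which drives the step to the primed state, fell by 0.33 (SE 0.08, adjusted p = 0.00548), a call lost without replicate 1 of day 4 (-0.26). The 2 rises were those of the claudin Cldn6 (0.79, SE 0.09) and the SOX factor Sox11 (0.29). The same list had a median of 1.99 from day 0 to day 2, with the day 2 arrays in common. Against day 0 its median at day 4 was 1.93, with members from -2.95 (Etv4) to 2.92 (Pou3f1). In AB2.2 the median was 0.04 over day 2 to day 4, with 6 rises and 7 falls, and for Fgf5, at 0.66 there, the difference between lines was -2.66 (SE 0.22, adjusted p = 5.87e-06).

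Of 13 genes of FGF and ERK feedback 9 fell and 3 rose, with a median of -0.52. With median scaling 9 fell and 0 rose, with a median of -0.90. The falls took in transcription factors, with Etv5 at -0.80 (SE 0.09), and inhibitors that ERK signalling induces, with the ERK phosphatase Dusp6 at -0.61 (SE 0.13) and Spred1 at -0.62 (SE 0.09). The cyclin Ccnd1 fell by 0.52 and the ligand Fgf4 by 0.44. Dusp6 read 10.40 and 10.36 at day 2 and 9.91 and 9.63 at day 4. The receptors Fgfr1 (0.30) and Fgfr2 (0.28) and the phosphatase Dusp4 (0.40) rose. In AB2.2 the list had a median of 0.37, and the change was lower in PL2F8 for 7 genes and higher for 1 (11 and 1 with median scaling). Dusp6 rose by 0.65 in AB2.2 (adjusted p of the difference 3.77e-04).

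Nodal pathway genes were mixed, 4 higher and 6 lower of 15 (1 and 7 with median scaling). The ligand Nodal fell by 0.79 (SE 0.08), from 10.55 and 10.57 to 9.75 and 9.79, and its feedback inhibitors Lefty1 and Lefty2 by 1.45 (SE 0.08) and 1.61 (SE 0.13). Lefty1 read 11.39 and 11.52 at day 2 and 9.97 and 10.06 at day 4. No difference from AB2.2 passed the test for Lefty1 (0.12, SE 0.12, adjusted p = 0.529). The proprotein convertase Furin, which matures Nodal, rose by 0.77 (SE 0.10). Of 11 genes of DNA methylation 6 fell and 1 rose (8 and 0 with median scaling). The glycosylase Tdg fell by 0.72 (SE 0.08), and the dioxygenase Tet1 rose by 0.32 (SE 0.07), whereas it fell by 0.83 in AB2.2.

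**Figure D2:**
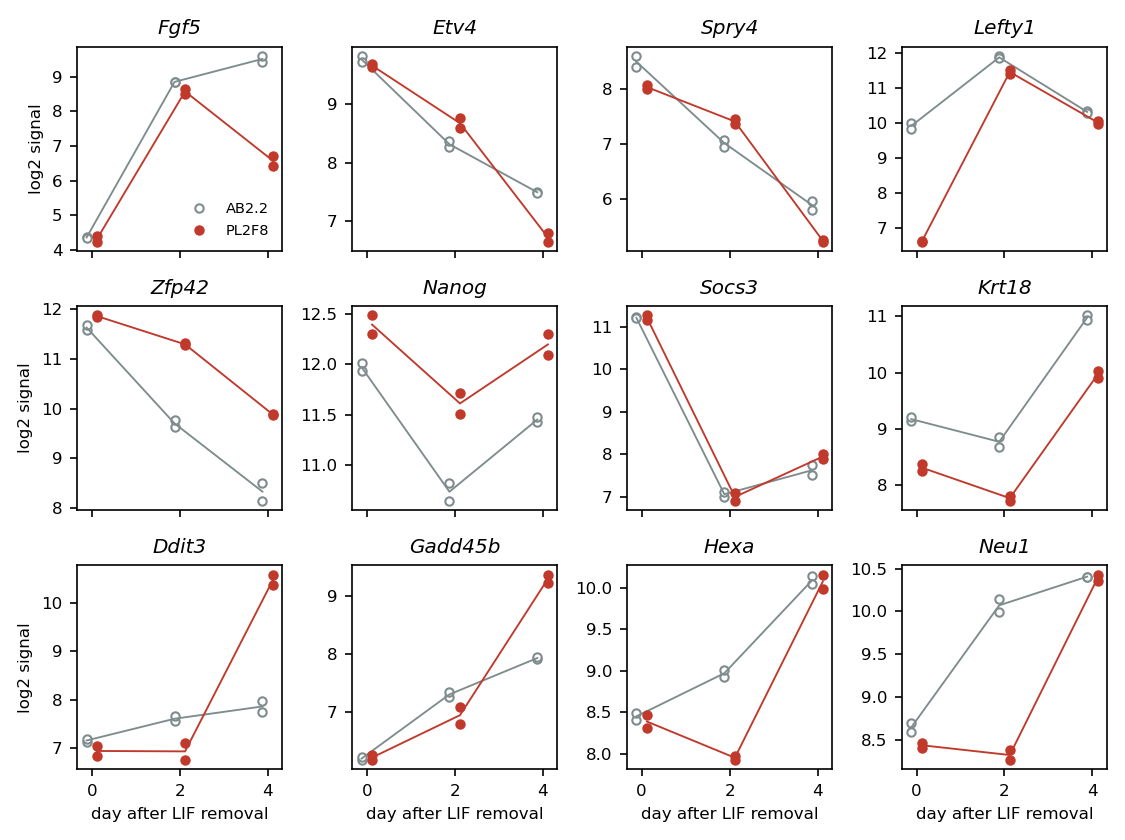
Log2 normalized signal (y axis, a scale for each panel) by day after LIF removal for 12 genes, with a point for each array, a line through the means, AB2.2 in open grey and PL2F8 in filled red. In PL2F8 Fgf5, Etv4, Spry4, Lefty1 and Zfp42 are lower at day 4 than at day 2, the others are higher, and Hexa and Neu1 reach about the AB2.2 level of day 4 only after day 2.

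In AB2.2 the days from 2 to 4 brought streak and endoderm genes, and in PL2F8 most of these did not pass the test. Of 18 genes of the primitive streak and mesendoderm, 3 rose and 2 fell in PL2F8 (median 0.08), and 9 were detected on none of the 4 arrays. In AB2.2 14 rose and 1 fell, with a median of 0.96, and the change was lower in PL2F8 for 12 genes and higher for 0 (14 and 0 with median scaling). T, the brachyury factor of the streak, read 4.49 and 4.34 and then 4.63 and 4.50 in PL2F8, below detection throughout, and was at least 6.94-fold higher at day 4 than at day 2 in AB2.2. The homeobox gene Mixl1 was likewise undetected in PL2F8. Gsc, the factor of the anterior streak, did rise in PL2F8, from 5.07 and 4.85 to 6.06 and 6.04 (1.09, SE 0.14), by less than in AB2.2 (2.36, adjusted p of the difference 5.73e-04). Eomes, a T-box factor, fell by 0.63 (SE 0.19), where another probe gave 0.49, and Fgf17 fell by 1.26 (SE 0.08).

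Of 12 endoderm transcription factors 4 rose and 2 fell (median 0.13), against 10 rises and 0 falls in AB2.2, and the change was lower in PL2F8 for 8 and higher for 0 (10 and 0 with median scaling). Gata6, a GATA factor of primitive endoderm, went from 5.77 and 5.82 to 6.68 and 6.69 and rose by 0.89 (SE 0.08), beside 1.08 in AB2.2 (adjusted p of the difference 0.245). Sox17 did not pass in PL2F8 (0.08, adjusted p = 0.78), with a difference from AB2.2 of -1.34 (adjusted p = 0.00345). Of 21 genes of visceral endoderm and yolk sac 7 rose and 2 fell (median 0.18, or 0.08 if undetected members are set to their bounds), whereas all 21 rose in AB2.2 (median 1.64). The change was lower in PL2F8 for 17 genes and higher for 1 (19 and 0 with median scaling). The 1 with a larger rise in PL2F8 was the apolipoprotein gene Apoe, which went from 8.53 and 8.55 to 10.51 and 10.46, a rise of 1.94 (SE 0.08) against 1.01 in AB2.2 (adjusted p of the difference 7.54e-05). Ttr, a transport protein of thyroid hormone, did not pass the test in PL2F8 (0.00, SE 0.16), at 6.31 and 6.33 and then 6.36 and 6.28. The apolipoprotein Apoa1 rose by 0.63 (SE 0.10) and the endocytic partner protein Amn by 0.72 (SE 0.09). The summed signal of the endoderm markers was 543 and 532 at day 2 and 778 and 793 at day 4, with Afp undetected.

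Of 19 Wnt pathway genes 7 rose and 4 fell (5 and 6 with median scaling), and of 12 BMP pathway genes 5 rose and 3 fell (4 and 4). The Wnt effector Lef1 fell by 1.06 (SE 0.15) while its relative Tcf7 rose by 0.89 (SE 0.12). The ligand Bmp7 went from 4.42 and 4.79 to 6.52 and 6.75 and rose by 2.03 (SE 0.14), and the ligand Bmp4 fell by 0.60 (SE 0.09). Bmp7 was not detected on replicate 1 of day 2, so the size of its rise rests partly on background signal. Of the Id genes, which BMP signals induce, Id2 rose by 1.14 (SE 0.11) and Id1 by 0.74 (SE 0.08), while Id3 fell by 0.45. The changes of Bmp7 and Id2 were larger than in AB2.2 (1.10 and 0.03 there, adjusted p of the differences 0.00533 and 2.86e-04). Of 15 genes of mesoderm and heart 7 rose and 1 fell (median 0.23, or 0.12 at bounds, and 0.42 without the 3 PL2F8 arrays of days 6 and 8, whose signal was dim). Beside Myl3 these were led by the hemato-endothelial factors Etv2 (1.10, SE 0.09) and Gata2 (0.94, SE 0.12). Of the mesoderm markers T, Mesp1, Kdr and Hand1 none was detected at either day. The remaining marker, Tbx6, was detected on both arrays of day 4, and its change did not pass (0.48, adjusted p = 0.0708).

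Epithelial and matrix genes rose in part. Krt18 went from 7.82 and 7.73 to 9.90 and 10.03, and its partner Krt8 from 8.00 and 7.96 to 9.25 and 9.37, a rise of 1.33 (SE 0.08). Krt7 rose by 1.08 (SE 0.13) and the AP-2 factor Tfap2c by 1.12 (SE 0.10). Of the 15 genes of the trophectoderm list that holds these, 7 rose and 4 fell, and the summed signal of the trophectoderm markers went from 583 and 572 to 1740 and 1899. The defining factors Cdx2 and Gata3 were undetected at both days, and Elf5 had no probe detected on 2 or more of the 18 arrays. The tight junction gene Cldn4 rose by 1.97 (SE 0.12), from 9.16 and 9.17 to 10.90 and 11.37, and Cldn3 by 1.07 (SE 0.09). Of 16 epithelial junction genes 7 rose and 2 fell, with a median of 0.26 that became -0.04 with median scaling. E-cadherin, Cdh1, did not pass (0.11, SE 0.10), nor did N-cadherin, Cdh2 (0.03). Krt8 rose by less than in AB2.2 (2.38, adjusted p of the difference 3.45e-05) and Cldn4 by more (0.45 there, adjusted p 6.21e-05).

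Of 16 genes of basement membrane and matrix 11 rose and 1 fell, with a median of 0.37 (6 and 3 with median scaling, median 0.13). Among the rises were the collagen IV chains Col4a1 (0.74) and Col4a2 (0.89, SE 0.09), the proteoglycan perlecan Hspg2 (0.93, SE 0.08, another probe -0.25), laminin chains and the collagen prolyl hydroxylases P4ha1 (0.87) and P4ha2 (1.25, SE 0.10). Of 21 genes of mesenchymal cytoskeleton 8 rose and 2 fell. Ccn2 went from 8.46 and 8.36 to 10.62 and 10.44, the annexin Anxa2 from 10.50 and 10.48 to 11.72 and 11.74 (1.25, SE 0.09), and the galectin Lgals1 rose by 1.21 (SE 0.09). Vimentin, Vim, fell by 0.63. Of 13 genes of feeder fibroblasts 6 rose and 2 fell. Fbln2, a matrix protein, rose by 1.48 (SE 0.12), against -0.35 in AB2.2 (adjusted p of the difference 9.62e-06), and the surface protein Thy1 by 1.13 (SE 0.10). The summed signal of the feeder markers was 911 and 934 at day 2 and 1789 and 1689 at day 4. Of the genes that define fibroblasts, Col1a1 was undetected at both days. Col1a2, Col3a1, Lum and Postn had no probe detected on 2 or more of the 18 arrays.

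Of the 20 genes of the neural ectoderm list only 12 could be tested, of which 2 rose and 2 fell. The marker Hes5 was detected at neither day, and Sox1, Pax6 and Fabp7 had no probe detected on 2 or more of the 18 arrays. Nes went from 4.76 and 4.67, the latter not detected, to 6.92 and 6.88. Sox21 rose by 0.58 (SE 0.11), while the midbrain factors En1 and En2 fell by 0.69 and 0.71. Of 14 genes of the neuronal cytoskeleton 5 rose and 2 fell. The microtubule proteins Mapt and Map2 rose by 1.03 (SE 0.11) and 0.82 (SE 0.09), though other Mapt probes gave 0.11 to 0.25, and the filament protein Ina fell by 0.98 (SE 0.12).

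Stress genes did not move as a block. Ddit3 shares the ATF4 and amino acid list with 18 other genes tested, and of these 19 in all 4 rose and 7 fell (4 and 13 with median scaling). The rises were those of Ddit3, of Ddit4, an inhibitor of mTORC1, by 1.80 (SE 0.10), of the chromatin-associated stress gene Nupr1 by 1.15 (SE 0.08), and of the CCAAT-binding factor Cebpb by 1.04 (SE 0.08). Ddit4 read 10.61 and 10.74 at day 2 and 12.32 and 12.62 at day 4, and Nupr1 9.03 and 9.13 and then 10.17 and 10.29. Other known targets of ATF4 fell, with the arginine transporter Slc7a3 down by 1.78 (SE 0.08), the glutathione-degrading enzyme Chac1 by 1.48 (SE 0.09) and the serine synthesis enzyme Phgdh by 1.30 (SE 0.08). Atf4 itself (0.09), Asns (-0.05) and Trib3 (-0.13) did not pass. The rises of Ddit3, Ddit4 and Nupr1 were larger than the AB2.2 changes of 0.25, 0.32 and -0.78 (adjusted p of the differences 3.65e-07, 1.26e-05 and 5.15e-07). Of 20 genes of heat shock and the unfolded protein response 3 rose and 9 fell (1 and 11 with median scaling), including the mitochondrial chaperone Hspd1 (-0.64) and Xbp1 (-0.79), the transcription factor of the endoplasmic reticulum branch, and the chaperone Hspa5 did not pass (-0.30).

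Of 16 p53 targets 9 rose and 2 fell, with a median of 0.35 that became -0.002 with median scaling (5 and 5). The cell cycle inhibitor Cdkn1a rose by 0.82 (SE 0.09), from 8.68 and 8.67 to 9.55 and 9.43, and the death gene Bbc3 by 0.81 (SE 0.08). The p53 gene Trp53 fell by 0.46. The Gadd45 genes, which respond to growth arrest and DNA damage, split, with Gadd45b up by 2.34, Gadd45g up by 0.80 (SE 0.08) and Gadd45a down by 0.96 (SE 0.08). Of 19 genes of interferon response and antigen presentation 5 rose and 9 fell (3 and 11 with median scaling). Irf1, an interferon-induced factor, read 11.29 and 11.38 at day 2 and 10.09 and 10.15 at day 4, a fall of 1.22 (SE 0.09) against -0.04 in AB2.2, the immunoproteasome subunit Psmb10 fell by 1.05 (SE 0.11), and B2m, the light chain of MHC class I, rose by 1.04 (SE 0.10).

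Among genes of DNA synthesis and ribosome assembly all calls were falls. Of 23 DNA replication genes 10 fell and 0 rose (median -0.22), and 20 fell with median scaling. Tyms, which makes thymidylate, fell most, from 10.95 and 10.80 to 9.24 and 9.31 (-1.60, SE 0.08), followed by the cyclin Ccne2 (-1.09, SE 0.21). Pcna fell by 0.62 (SE 0.14). Of 13 genes of MYC and ribosome biogenesis 8 fell and 0 rose (median -0.49, and -0.82 with median scaling). Pes1 went from 9.47 and 9.60 to 7.62 and 7.58, and Nop56, a protein of the box C/D particles that guide RNA modification, from 10.64 and 10.69 to 9.25 and 9.36 (-1.36, SE 0.07). The fall of Pes1 was larger than in AB2.2 (difference -1.73, SE 0.18, adjusted p = 3.20e-05), and for Nop56 the difference did not pass (adjusted p = 0.0813). Of 14 ribosomal protein genes 3 rose and 2 fell, with a median of 0.04 that became -0.176 with median scaling and -0.027 with probes averaged.

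Mitotic genes showed 5 rises and 2 falls of 17, against 23.8% and 20.6% of all genes. Their median was 0.18, and -0.106 with median scaling, where 0 rose. Of 13 G1 cyclins and inhibitors 4 rose and 3 fell (median 0.17, and -0.156 with median scaling). The cyclin Ccnd2 fell by 0.68 (SE 0.10) and its kinase Cdk4 by 0.55. In energy metabolism, 11 of 22 genes of glycolysis and hypoxia rose and 3 fell (median 0.31, and 8 and 4 with median scaling), while of 20 genes of oxidative phosphorylation 2 rose and 7 fell (median -0.15, and 0 and 15 with median scaling, median -0.45). The hypoxia-responsive genes Ndrg1 and Vegfa rose by 1.72 (SE 0.08) and 1.34 (SE 0.08), and the enzymes Gpi1 and Hk1 by 1.30 (SE 0.08) and 1.19 (SE 0.12). Ndrg1 read 7.89 and 8.04 at day 2 and 9.67 and 9.70 at day 4. Pfkp, another glycolytic enzyme, fell by 0.92 and the hypoxia-induced kinase Pdk1 by 0.72. Of 19 genes of cholesterol synthesis 7 rose and 7 fell, but 1 rose and 10 fell with median scaling. In AB2.2 1 rose and 13 fell, and for 10 of them the change was higher in PL2F8 and for 0 lower (2 and 2 with median scaling). Nsdhl, a sterol dehydrogenase, fell by 1.15 (SE 0.20), and Srebf2, the factor that controls this pathway, rose by 0.58 (SE 0.08, 0.30 and not called with median scaling).

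Among 15 imprinted genes 7 rose and 4 fell (median 0.20, and -0.101 with median scaling). The noncoding H19 went from 9.28 and 9.23 to 11.15 and 11.09 (1.87, SE 0.08) and its neighbour, the growth factor Igf2, rose by 0.84 (SE 0.09) against 2.58 in AB2.2 (adjusted p of the difference 1.80e-06). Peg10, a retrotransposon-derived gene, fell by 0.76. Of 11 Hox genes 3 rose and 0 fell, all close to background. Hoxb4 and Hoxa5 were not detected at day 2 and were at least 1.35-fold and 1.07-fold higher at day 4, calls that were lost for Hoxb4 without replicate 2 of day 2 or replicate 1 of day 4 and for Hoxa5 without replicate 2 of day 4. Of 19 Polycomb and chromatin remodelling genes 4 rose and 2 fell (median 0.03, and -0.286 with median scaling), and of 13 germ cell genes 3 rose and 1 fell (median 0.01, and -0.210 with median scaling). Of 7 genes of the 2-cell-like state, a rare state of ES cultures with genes of the early embryo, 4 fell and 1 rose. Zscan4c, a gene with near-identical copies, fell by 0.77 (SE 0.08), from 8.50 and 8.45 to 7.64 and 7.76, and changed by -2.92 in AB2.2. For 6 of the 7 the change was higher in PL2F8 and for 0 lower (6 and 1 with median scaling). Of 5 blood and immune genes Cd68 rose by 0.37, a call lost without any 1 of the 4 arrays (0.28 to 0.46), and Laptm5 fell by 0.37. Ptprc, Tyrobp and Gata1 had no probe detected on 2 or more of the 18 arrays.

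**Figure D3:**
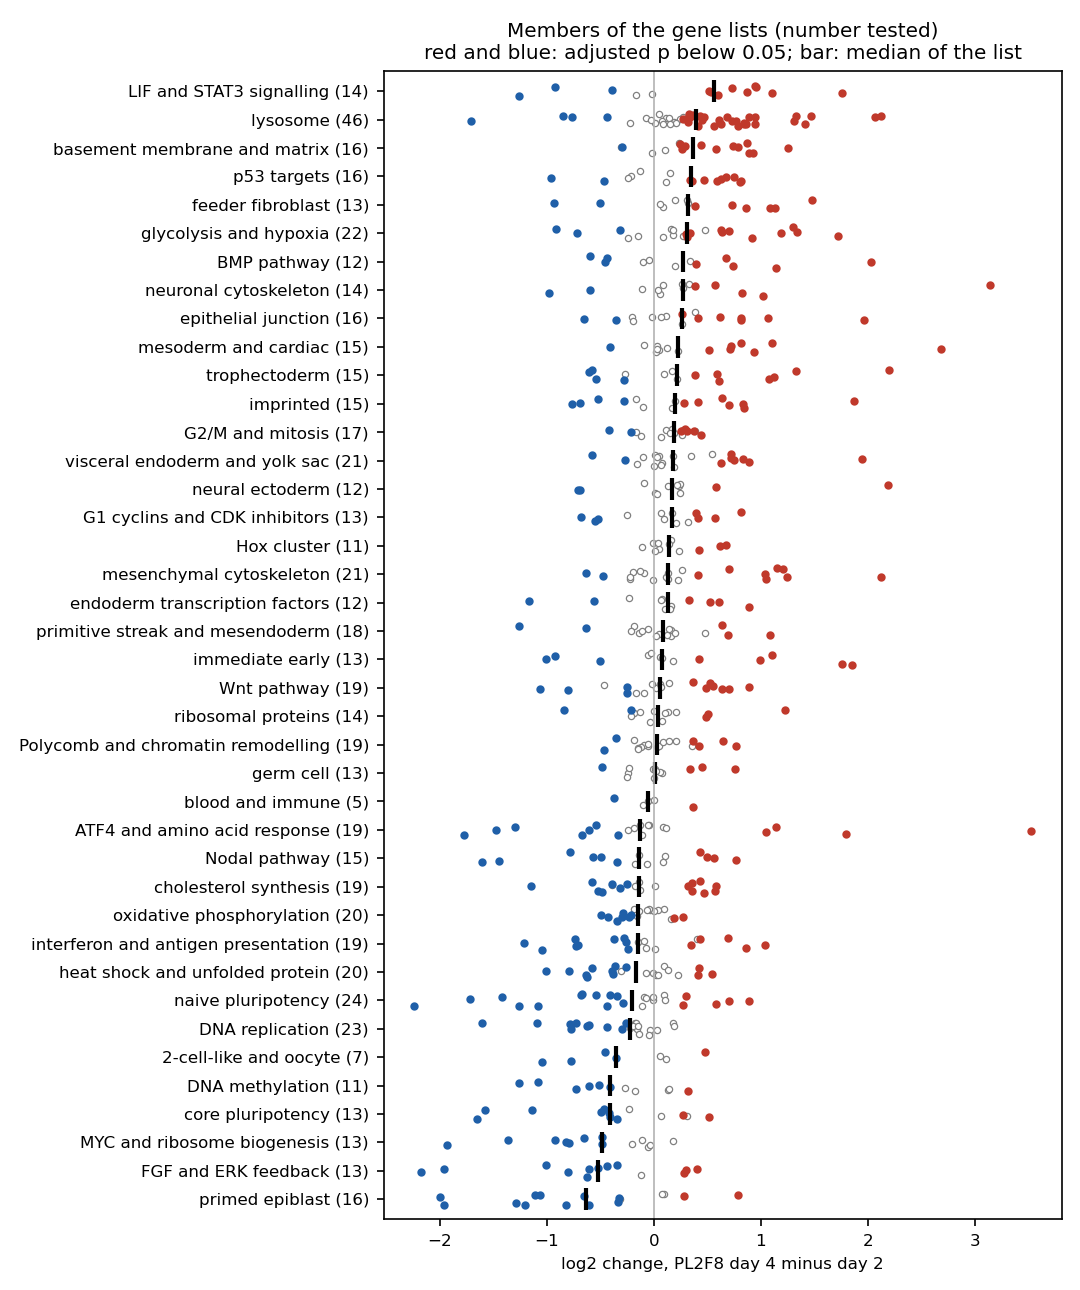
Log2 change from day 2 to day 4 in PL2F8 (x axis) of every tested member of the 39 gene lists and the lysosome list, ordered by their medians (black bars), with filled red and blue points for genes that rose or fell at an adjusted p below 0.05 and open points for the rest. The medians run from -0.63 for primed epiblast genes to 0.57 for LIF and STAT3 signalling, and every list with at least 10 genes has members on both sides of 0.

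The same interval was tested for a difference between the lines, which share no array in it. In AB2.2 3364 genes rose (20.9%) and 2848 fell (17.7%). The genes that rose in both, 1867, were 48.7% of the PL2F8 rises and 55.5% of the AB2.2 rises, and the 1573 that fell in both were 47.5% and 55.2% of the falls. The change itself was higher in PL2F8 for 2109 genes (13.1%) and lower for 1965 (12.2%). With median scaling these were 997 and 6163, so that the share of higher ones went from 51.8% to 13.9%, and the median difference over all genes from -0.009 to -0.315. In the main fit, 294 of the 3837 genes that rose in PL2F8 fell in AB2.2, where 17.7% of all genes fell. Of the 3315 genes that fell in PL2F8, 206 rose in AB2.2, where 20.9% of all genes rose. Both are smaller shares than those over all genes.

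Among genes with a higher change in PL2F8, Ddit3 was first (difference 3.28, SE 0.18). Dll1, a Notch ligand, read 6.00 and 6.32 at day 2 and 7.18 and 7.26 at day 4 in PL2F8, and 7.23 and 7.49 and then 5.57 and 5.66 in AB2.2, so that the lines moved in opposite directions (difference 2.81, SE 0.21). The same was true of the amine oxidase Aoc3 (1.25 in PL2F8 and -1.36 in AB2.2), of the adhesion molecule Icam1 (1.52 and -0.74), of Gadd45g (0.80 and -1.43) and of the T-box factor Tbx4 (1.65 and -0.54). Pramel37 and Pramel39, of a multigene family in which probes may not tell members apart, differed by 2.65 and 2.55. On the other side, the serum protein genes Afp and Spp2 and the streak gene T were undetected in PL2F8 at both days and rose in AB2.2, Afp by at least 12-fold, T by at least 6.94-fold and Spp2 by 3.27 (SE 0.18). The ligand Fgf8 rose by 3.34 in AB2.2 and did not pass in PL2F8 (-0.21, adjusted p = 0.193). Trh rose by 0.75 in AB2.2 and fell by 2.28 in PL2F8, and the nucleotidase Nt5e, the ligand Wnt8a and the apolipoprotein Apom (difference -2.88) likewise rose there and fell in PL2F8, Nt5e by at least 2.35-fold and Wnt8a by at least 1.37-fold, since both were undetected at day 4.

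**Figure D4:**
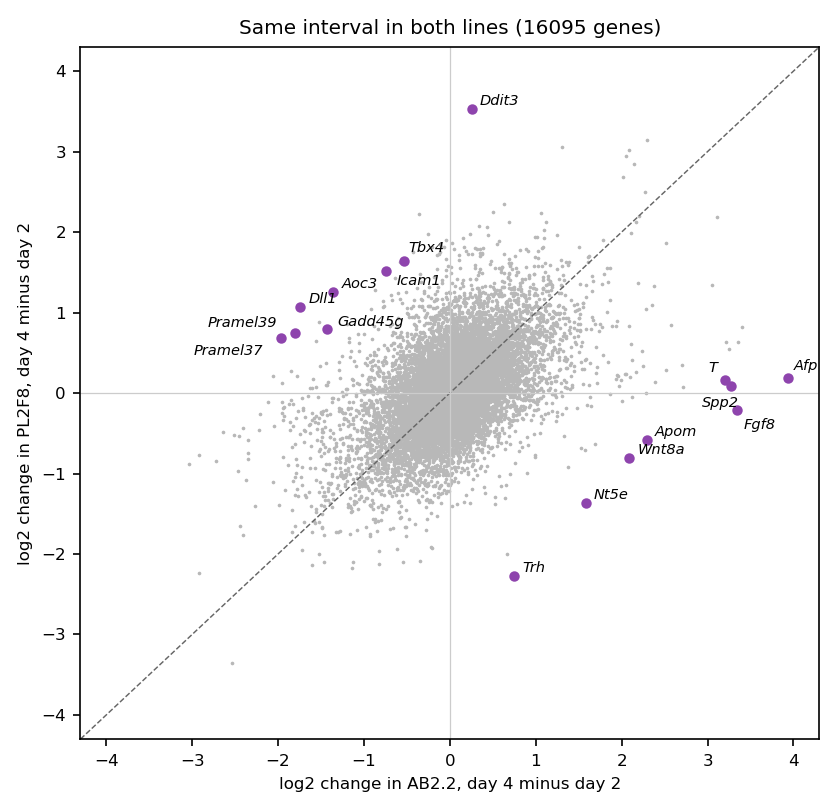
Log2 change from day 2 to day 4 in PL2F8 (y axis) against AB2.2 (x axis) for 16095 genes, a grey point each, with the dashed line of equal change and the 8 largest differences in each direction as named purple points. Ddit3 lies high on the y axis near 0 in AB2.2, while Afp, T, Spp2 and Fgf8 lie above 3 in AB2.2 and near 0 in PL2F8, where the first 3 were undetected.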

How the data were processed

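Total RNA of 18 samples, 1 Illumina mouse bead array each, had been labelled with biotin, per the labels. The deposited table holds average signal intensities, not normalized per the file headers, and a detection p-value for each probe. Lines with displaced fields, 445 of 45281 (0.98%), were left out. Genes were named by setting quantile-normalized probe values against the authors' deposited matrix of named intensities, of which 30488 of 30848 lines were matched (largest distance 0.0393, against at least 0.1664 for the next probe), with symbols updated through the platform annotation and RefSeq (GRCm38). How the matrix was made is not given in the sources used here. Its values were used only as an alternative.

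Background was corrected with normexp from the 936 negative controls implied by the detection p-values (offset 16), followed by quantile normalization, all in limma 3.58.1 (R 4.3.3). Probes detected at p below 0.05 on at least 2 of 18 arrays were kept (23879), and the brightest probe stood for a gene. One mean per line and day was fitted (8 residual degrees of freedom, 4.12 prior), and p-values were adjusted after Benjamini-Hochberg. Where a gene was undetected on all arrays of the lower group, a fold is a bound against the lowest detected signal. The number of arrays limits the precision. The model was tested on simulated data.

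The members and gene lists were chosen with earlier results of these data known, and the lysosome list after its values had been seen. Genes were named by rule, as the 15 largest called rises and falls whose arrays did not overlap, the 8 largest differences between lines each way, up to 4 genes a list with the smallest p, and a set of ES and lineage genes. Sox1 of that set was not tested, and a few genes that the rule names are not reported here. Other list members were named after their values were seen. Replicate numbers did not pair the arrays (correlations of deviations from -0.03 to 0.02). Alternatives covered background, scaling, filters, arrays, probes, the matrix, a replicate block, array weights and leaving out each array.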

Additional observations from a re-analysis of the deposited data

Results flagged for a closer look

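The interval from day 2 to day 4 was set against the same interval in AB2.2, and the test of the difference itself passed for 2109 genes with a higher change in PL2F8 and 1965 with a lower one, in limma with Benjamini-Hochberg adjustment. The largest differences with a higher change in PL2F8 were those of Ddit3 (3.28 on the log2 scale), Dll1 (2.81), Pramel37 (2.65), Aoc3 (2.61), Pramel39 (2.55), Icam1 (2.26), Gadd45g (2.23) and Tbx4 (2.18). Those with a lower change were Afp (-3.75), Fgf8 (-3.56), Spp2 (-3.18), T (-3.05), Trh (-3.03), Nt5e (-2.95), Wnt8a (-2.90) and Apom (-2.88). Afp, Spp2 and T were undetected in PL2F8 at both days (Afp and T also in AB2.2 at day 2), and Nt5e and Wnt8a in PL2F8 at day 4, so these 5 values include background signal and neither they nor their order are exact. The raw mean signal fell between these days in PL2F8 and rose in AB2.2, and its part in these differences was not tested.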

How the results depend on the processing

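The counts of rises and falls were within 1.5 times the main ones under every alternative run except median scaling, which gave 2315 rises and 5094 falls (789 by at least 2-fold), differences between lines of 997 higher and 6163 lower, and 117 list genes called higher. The rises and falls of at least 2-fold, 516 and 365, became 249 and 166 without background correction, 242 and 159 with an offset of 50, and 202 and 146 with the authors' matrix. An offset or uncorrected background shrinks log2 changes of dim genes by construction. Leaving out each of the 4 arrays gave 3117 to 3203 rises and 2623 to 2682 falls, with fewer arrays in the fit. With the replicate number as a block, rises and falls were 3748 and 3223, and differences between lines 1995 and 1825. With the 4 arrays alone they were 4008 and 3416, and without the dim arrays of PL2F8 days 6 and 8 they were 4140 and 3637. Of 3324 values of named genes under alternatives 3274 kept their side of the threshold and, for genes called in the main fit, their direction. Another 43 no longer passed, 3 newly passed and 4 values of called genes changed sign. For genes not called in the main fit a change of sign was not counted. The 253 values of the 16 named line differences all kept direction and side of the threshold. List medians changed sign with median scaling for epithelial junction (-0.036), germ cell (-0.210), imprinted (-0.101), Polycomb (-0.286), G2/M (-0.106), G1 (-0.156), p53 (-0.002) and ribosomal protein genes (-0.176), and so did Bub1b (-0.086), Cdc20 (-0.052) and Esrrb (-0.066). With probes averaged, ribosomal protein genes were at -0.027 and Cdc20 at -0.061, and leaving out each array put immediate early genes at -0.025 (without PL2F8 day 4 replicate 1) to 0.254. Where not stated, the cause was not tested. A slide block was not run, since the slide is not given in the sources used here. Genes undetected on all arrays of the lower day had only bounds, 309 among the rises and 247 among the falls. Those undetected on 1 array of that day are given as measured. A further 28 called genes were detected on none of the 4 arrays, so their values at both days were background signal.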
